A study of Mus musculus with 20 samples.

Results

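The cytosolic ribosomal protein genes encode the protein parts of the ribosomes that translate the messenger RNAs of the nucleus. They were taken as the genes of the count table whose symbol is Rpl (large subunit) or Rps (small subunit) followed by a number and at most 1 letter, which matched 79 symbols. Of these, 3 (Rpl32l, Rpl6l and Rps4l) are annotated as processed pseudogenes and were left out, so that 76 genes of 33119 remained, 46 of the large and 30 of the small subunit. They lie on 19 chromosomes. The symbol rule does not take Rplp0, Rplp1, Rplp2, Rpsa, Fau, Rack1 or Rps3a1, which also belong to the ribosome, and these are given only for comparison.

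Hippocampal RNA was sequenced from 20 mice aged 16 months, 5 each of male hAPOE3 (M.APOE3, mice S154 to S158), male hAPOE4 (M.APOE4, S174 to S178), female hAPOE3 (F.APOE3, S144 to S148) and female hAPOE4 mice (F.APOE4, S164 to S168). All were homozygous targeted replacement mice on a C57BL/6 background, in which human APOE3 or APOE4 stands in place of the mouse gene. Each sample is 1 mouse and each genotype is 1 purchased line, so genotype and line cannot be told apart. The comparisons ask how the APOE genotype, sex and their combination relate to hippocampal transcripts.

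A ribosome holds 1 copy of nearly every ribosomal protein, bound to ribosomal RNA, and cells make these proteins in near-equal amounts. The messenger RNAs are short, abundant and polyadenylated, and most begin with a C followed by a stretch of pyrimidines, the 5′ terminal oligopyrimidine tract, through which growth signals acting on the kinase mTORC1 set their translation. In neurons, ribosomes also lie in dendrites and axons, where proteins are made close to synapses. Spare Rpl5 and Rpl11, bound to the 5S ribosomal RNA, restrain Mdm2 and so raise p53 when ribosome assembly fails.

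The starts of 6 members are shown because the pyrimidine tract is the feature that the family is best known for. Each line gives 10 bases before the RefSeq start and 20 from it (GRCm38.p6), 5′ to 3′ on the strand of the gene, and capitals mark the unbroken run of C and T that begins at the start base.
Rps6 (chr4:86857348-86857377, minus): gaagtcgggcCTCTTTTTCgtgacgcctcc
Rpl28 (chr7:4792955-4792984, plus): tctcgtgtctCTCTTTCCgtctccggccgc
Rpl35 (chr2:39005112-39005141, minus): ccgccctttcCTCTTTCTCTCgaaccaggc
Rps10 (chr17:27635225-27635254, minus): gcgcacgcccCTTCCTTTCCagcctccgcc
Rps9 (chr7:3704031-3704060, plus): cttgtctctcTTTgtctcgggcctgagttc
Rpl41 (chr10:128549149-128549178, minus): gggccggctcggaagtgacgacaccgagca

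RefSeq windows of 300 bases were at hand for 57 of the 76 members (69 windows), and 16 of the 57 (28.1%) had a run of at least 4 pyrimidines from the start base, against 8.12% of all genes with a window. Rps6, the small-subunit protein that S6 kinases phosphorylate, Rpl28, Rpl35 and Rps10 are among the 16, whereas Rps9 has a run of 3 after a pyrimidine stretch just before the start, and Rpl41, which encodes the shortest protein of the family, has none. The result turns on the start that RefSeq assigns, which can lie a few bases off. Of the promoter motifs searched on both strands, the ETS core CCGGAAG was held by 23 of 57 member genes (40.4%) and by 2674 of all 26742, the SP core GGGCGG by 57.9% and 38.5%, the YY1 core AAGATGG by 15.8% and 7.32%, and the TATA letters TATAAA by 8.77% and 15.6%. Occurrences of the motifs may overlap at their ends.

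The 90 bases before the first annotated start are shown for the member that differed by genotype (Rps9), for the member whose level followed the others most closely (Rpl37) and for Rps6, with ETS and SP cores in capitals.
Rps9 (chr7:3703903-3703992, plus): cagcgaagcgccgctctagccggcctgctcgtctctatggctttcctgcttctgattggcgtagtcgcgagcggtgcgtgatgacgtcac
Rpl37 (chr15:5116523-5116612, plus): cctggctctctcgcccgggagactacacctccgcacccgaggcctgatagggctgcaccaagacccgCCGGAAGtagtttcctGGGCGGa
Rps6 (chr4:86857413-86857502, minus): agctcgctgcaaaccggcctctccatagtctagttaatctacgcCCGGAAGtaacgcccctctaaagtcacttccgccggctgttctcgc
In Rpl37 the ETS core begins 23 bases and the SP core 7 bases before the start, in Rps6 the ETS core begins 46 bases before it, and the Rps9 stretch holds none of the 4 motifs. A match of letters is a description of the window and not a binding site.

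Ribosomal protein transcripts were abundant in every hippocampus. The 76 genes took 1.40% ± 0.342 of all counts in M.APOE3, 1.17% ± 0.104 in M.APOE4, 1.17% ± 0.282 in F.APOE3 and 1.14% ± 0.0293 in F.APOE4 mice (SD, n = 5 each), of library totals between 35778879 and 52520279 counts. TMM-scaled counts relative to library size (CPM) were divided by transcript length in kilobases to compare levels between genes. Over the 74 members that passed the filter on low counts the median level was 228.5 CPM per kb, with 224.6 in the large and 236.0 in the small subunit and quartiles of 149.6 and 287.3.

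The highest levels per length were those of Rpl41 (596.4 ± 136.6 CPM per kb, SD over 20 mice), Rps15 (545.3 ± 134.4), Rps29 (510.2 ± 117.4), Rps21 (485.0 ± 114.8) and Rpl9 (450.9 ± 77.9). Neighbours in the order of levels mostly could not be ranked: in 3 of 73 neighbouring pairs the gap exceeded the combined SD of the pair over mice. At the other end stood Rps20 (24.6 ± 5.19 CPM per kb), Rpl5 (22.4 ± 3.16), Rps27l (21.5 ± 4.35), Rpl12 (10.6 ± 2.15) and Rpl3l (0.273 ± 0.0932). The value of Rps20 rests on an annotated transcript of 3706 bases, against a median of 705 over the members, and is uncertain for that reason. Other levels also depend on the transcript taken. Rps24 (155.3 CPM per kb) was divided by 1613 bases, while its RefSeq-matched transcript has 525. Rps15a goes the other way, with 640 bases taken and 5179 in the RefSeq-matched transcript. Which members stand highest therefore depends on the lengths used.

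**Figure D1:**
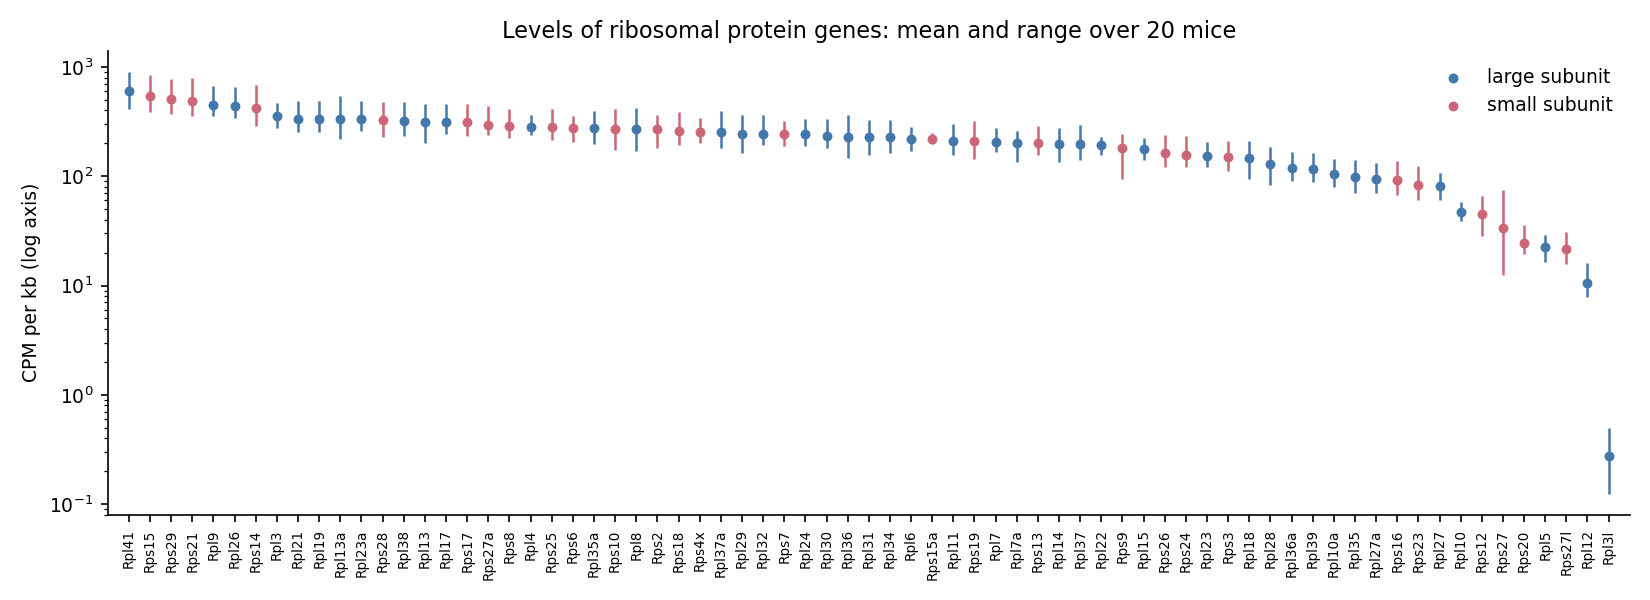
Level of 71 of the 74 members tested, in CPM per kb on a log axis. Points are means and lines the range over 20 mice, with the large subunit in blue and the small subunit in red. Most members lie near the median of 228.5 CPM per kb, and Rpl3l lies far below at 0.273.

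The tissue-restricted copies were near 0. Rpl3l, the form of striated muscle, had between 6 and 32 counts per mouse, and Rpl10l and Rpl39l, known from the testis, reached at most 19 and 10 counts and did not pass the filter. Rps27l, a target of p53, lay between 7.90 and 15.5 CPM.

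Several low levels stand beside abundant near-identical copies, among which the authors' transcript counting has to divide reads. The table holds named pseudogenes of 53 members, which together had between 6.55% and 7.70% as many counts as the members themselves. For Rps12 the pseudogenes held 708.3% of the counts of the gene, for Rpl10 506.8%, for Rps23 179.4% and for Rpl27 89.97%. The levels of these 4 genes are therefore uncertain. The same holds for Rps27 (11.7 CPM on average) beside its retrogene Rps27rt (138.9 CPM), of whose sum Rps27 made up between 3.53% and 19.7% in single mice.

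The ribosomal proteins named above as outside the symbol rule ranged more widely, from 105.6 CPM per kb (Rack1) to 813.3 (Rplp1). Rplp1, a protein of the stalk that recruits elongation factors, thus lay above every member. Rps3a1 was at 316.9, Fau at 308.8 and Rplp0 at 120.7 CPM per kb. The X-linked members had levels of 255.9 (Rps4x), 119.9 (Rpl36a), 115.8 (Rpl39) and 46.6 CPM per kb (Rpl10), and all 4 lay below 0 on the log2 scale in every comparison of sexes, with adjusted p of 0.805 or more.

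The ribosomal protein genes moved together from mouse to mouse. After removing group means, the median correlation between pairs of the 74 members was 0.909 over 20 mice (2701 pairs, 75.4% of them above 0.8), against 0.085 over pairs of the 4675 genes above 50 CPM. These are descriptions, since all genes of a mouse share 1 library. In the 10 hAPOE4 mice alone the median was 0.687, against 0.114 over the abundant genes.

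Rpl37 (median correlation 0.960 with the other members), Rps13 (0.959) and Rpl37a (0.957), ordinary components of either subunit, followed the family most closely. Rpl37 had 136.0, 137.4, 221.5, 245.3 and 214.0 CPM in hAPOE3 males S154 to S158, and 117.7, 132.1, 130.7, 196.8 and 201.9 in hAPOE3 females S144 to S148. In hAPOE4 males S174 to S178 it had 150.8, 173.9, 119.9, 170.1 and 169.1 CPM, and in hAPOE4 females S164 to S168 157.1, 135.8, 143.8, 154.5 and 157.9. Within both hAPOE3 groups the mice fell into a high and a low range, and the hAPOE4 mice lay between or at the low range.

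Least like the family were Rps27 (0.062), Rpl3l (0.181) and Rps15a (0.668). For Rps27 the division of reads with Rps27rt limits the value, and the sum of both genes was 177.9 ± 50.4 CPM in hAPOE3 males and 141.1 ± 15.8, 145.3 ± 30.9 and 138.2 ± 6.55 in hAPOE4 males, hAPOE3 females and hAPOE4 females. Rps15a varied little, between 125.1 and 160.4 CPM over all mice. The 8 abundant genes outside the 76 members whose pattern was closest to the mean of the members over 20 mice were Rps12-ps3 (r = 0.990), Atp5j2 (0.989), Gm10275 (0.986), Rplp2, Uqcrh, Eef1b2, Atp5h and Rplp1 (0.978). Rps12-ps3 is a pseudogene of a member, and Rplp1 and Rplp2 are ribosomal proteins themselves.

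The mice in the high range were the same for nearly all members. The share of counts was 1.55%, 1.75% and 1.63% in hAPOE3 males S156, S157 and S158 and 1.45% and 1.498% in hAPOE3 females S147 and S148. In the other 5 hAPOE3 mice it lay between 0.939% and 1.03%, and in the 10 hAPOE4 mice between 1.04% and 1.30%. For 70 of the 74 members every 1 of the first 5 mice exceeded every 1 of the other 5 hAPOE3 mice. The first 5 mice were set apart by these values, so no test was made between them and the others.

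**Figure D2:**
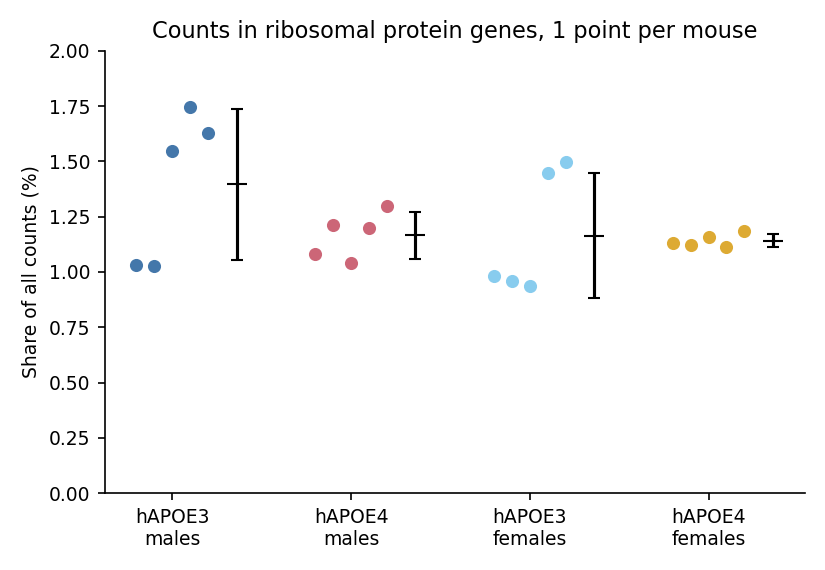
Share of all counts in the 76 ribosomal protein genes, in percent, 1 point per mouse, with mean and SD (n = 5) beside each group. The hAPOE3 groups hold a gap between 1.03% and 1.45%, and hAPOE4 females lie between 1.11% and 1.184%.

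Other short transcripts shifted with the ribosomal protein genes. Taking for each gene the deviation of log2 CPM from its mean over 20 mice, the members averaged between 0.26 and 0.50 in the 5 high mice, between -0.34 and -0.18 in the other 5 hAPOE3 mice and between -0.26 and 0.05 in hAPOE4 mice. The 195 other coding genes above 50 CPM with transcripts under 1000 bases averaged between 0.24 and 0.35 in the same 5 mice and between -0.25 and -0.12 in the other 5. The 1877 genes above 50 CPM with transcripts over 4000 bases went the opposite way, between -0.29 and -0.13 in the 5 high mice and between 0.05 and 0.17 in the other 5. Their part in the differences between groups was examined only through the added fit with the short genes as a covariate, given beside the results.

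Related gene lists were also set against the same mice. The 51 nuclear oxidative phosphorylation genes with short messages averaged between 0.33 and 0.47 in the 5 high mice and between -0.34 and -0.15 in the other 5, and the 78 mitochondrial ribosomal proteins between 0.24 and 0.32 and between -0.28 and -0.12. The 30 genes of ribosome biogenesis moved less, between 0.04 and 0.19 and between -0.15 and -0.04. The 23 genes of mTORC1 and the S6 kinases, which act on translation of these messages, went the opposite way, like the long genes, between -0.26 and -0.03 and between 0.02 and 0.11.

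**Figure D3:**
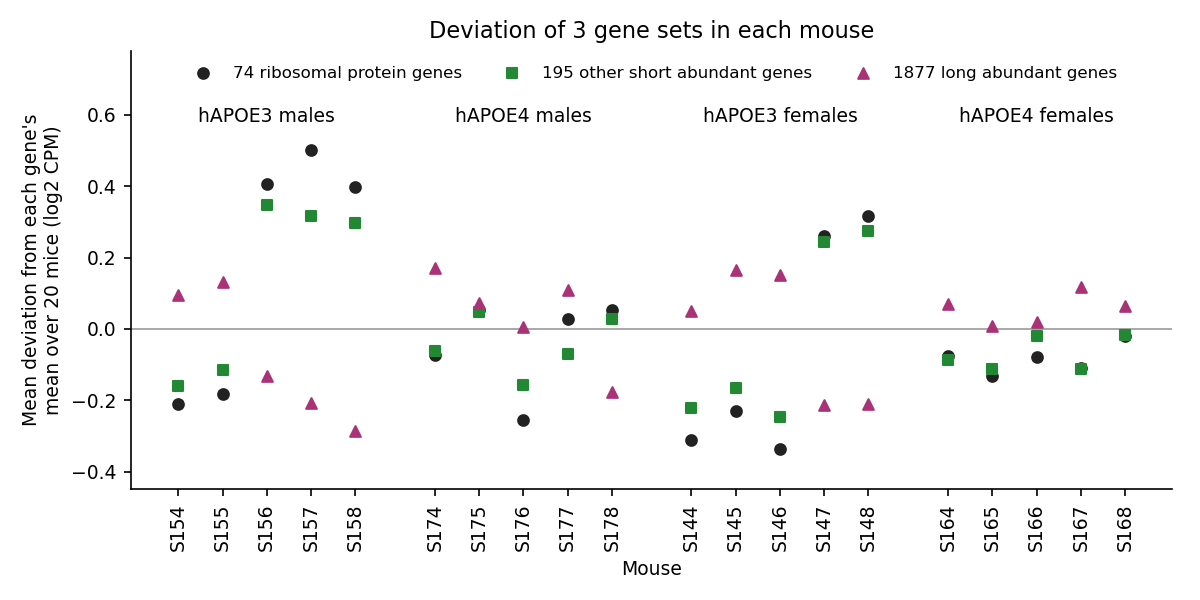
Mean deviation in log2 CPM of the 74 members (circles), 195 other short abundant genes (squares) and 1877 long abundant genes (triangles) in each mouse. Circles and squares lie above 0 and triangles below 0 in S156, S157, S158, S147 and S148.

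The tissue check and markers of other tissue bear on these values. Markers of the hippocampal subfields summed to between 778 and 1528 CPM per mouse, so transcripts of this list were present in all 20 mice. The sum does not measure how much of a sample was hippocampus. Choroid plexus markers ran from 272 to 9527 CPM, oligodendrocyte markers from 4282 to 13510 and striatal markers from 56.7 to 526.9, with all genes of these 3 lists detected. Thalamic markers reached 543.6 CPM in hAPOE3 males and 478.6 in hAPOE4 males. By deviation S158, which is among the 5 high mice, S176 and S178 held the highest thalamic values (2.28, 1.95 and 2.03). The same 3 mice held the lowest subfield values (-0.47, -0.45 and -0.59). Oocyte markers reached 176.7 CPM in hAPOE4 males and at most 3.64 in hAPOE3 males. On the scale of deviations the choroid plexus list ranged from -1.97 to 1.52 in the 5 high mice and from -2.32 to 2.18 in the other 5, and so overlapped. The 8 astrocyte markers did not overlap, between -0.32 and -0.11 in the 5 high mice and between 0.01 and 0.19 in the other 5. The 10 microglia markers lay between 0.01 and 0.29 and between -0.15 and 0.01, and overlapped narrowly. The hAPOE3 mouse S158 held the highest striatal and oligodendrocyte values. Mitochondrially encoded genes took between 6.47% and 11.4% of counts. The part of tissue composition in the ribosomal protein values was not tested, and in bulk tissue fewer cells of a type cannot be told from less RNA per cell.

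In males, ribosomal protein transcripts were lower in hAPOE4 than in hAPOE3 hippocampus by fold change but not by the test. The median log2 fold change of the 74 members was -0.27 (a fold of 0.829), with quartiles of -0.32 and -0.22, against 0.00 over all genes. By edgeR's quasi-likelihood test 0 members passed the adjusted threshold of 0.05, against 0.621% of the 21724 genes tested, and the smallest adjusted p was 0.238. Without adjustment 16 members were lower and 1 (Rps9) higher at p under 0.05, against 4.56% of all genes that were lower. DESeq2 also called 0 members, with 21 lower at an unadjusted p under 0.05.

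Of 74 members 72 had a negative fold change, from -0.43 (Rps23) up, including all 44 of the large subunit, against 49.7% of all genes. The members move together between mice, so these are not 72 independent results. Rps23, which lines the decoding centre, had 76.0, 71.4, 104.6, 117.0 and 99.7 CPM in hAPOE3 males and 62.7, 74.5, 57.2, 79.4 and 75.4 in hAPOE4 males (log2 fold change -0.43 ± 0.16 SE, adjusted p = 0.387 by edgeR). The groups overlapped, through S154 and S155 of the hAPOE3 males. The 2 members above 0 were Rps9 and Rps27.

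The male median changed with the hAPOE3 mice that were kept. Leaving out S156, S157 and S158 (with S147 and S148) turned it to 0.15, with 1 member called (Rps9), against 0.136% of all genes. Leaving out the other 5 hAPOE3 mice left 60 of 74 members called, 0 of them higher, against 7.85% of all genes. With the deviation of the short abundant genes as a covariate it was 0.00, with Rps9 again the 1 member called, against 0.644% of all genes. All 3 settings were added after the values were seen. The first 2 take out mice by their own values, so the direction in which the median moved followed from that choice. The short genes of the covariate moved with the members and include the ribosomal proteins Rplp1 and Rplp2. A median nearer 0 was therefore to be expected from that covariate, here and in the other comparisons. The medians and calls of all 3 settings are descriptions.

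Among members known for roles outside the ribosome, Rpl11 was -0.40 ± 0.15 on the log2 scale in males and Rpl5 -0.22 ± 0.11, while Rps6 was -0.07 ± 0.13, Rps19, mutated in Diamond-Blackfan anaemia, -0.24 ± 0.18, Rpl13a -0.32 ± 0.22 and Rpl22 -0.10 ± 0.10 (adjusted p between 0.393 and 0.874 by edgeR). None of these 6 passed the threshold in males. Their values in hAPOE4 against hAPOE3 females ran from -0.20 (Rpl5) to 0.20 (Rps6), with adjusted p of 0.602 or more.

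In females the family as a whole stood close to 0 and 1 member, Rps9, passed the test. The median was -0.06, with quartiles of -0.15 and 0.01, and 52 of 74 members were below 0, against 49.7% of all genes. By edgeR 1 of 74 members passed the adjusted threshold, against 0.667% of all genes, and 1 member (Rpl38) was lower at an unadjusted p under 0.05, against 6.54% of all genes. Rpl38, which in mouse embryos is needed for translation of Hox messages, had 92.3, 106.5, 98.0, 145.8 and 155.6 CPM in hAPOE3 females and 93.4, 83.8, 89.3, 96.4 and 99.1 in hAPOE4 females (-0.37 ± 0.17, adjusted p = 0.463).

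The median in females also changed sign when the 5 high mice were left out, to 0.19, and fell to -0.41 without the other 5 hAPOE3 mice. The mice were chosen by these values, so the directions of both changes followed from that choice. Without the 5 high mice 8 members were called, all higher, against 0.416% of all genes. Without the other 5 hAPOE3 mice 44 were called, 1 of them higher, against 7.42% of all genes. With the short genes as a covariate the median was 0.03 and 4 members were called, 3 of them higher (1.2% of all genes). Since hAPOE3 females held 2 of the 5 high mice and hAPOE3 males 3, the medians of the sexes differ in how many such mice they hold, and a difference between the male and female medians and that count cannot be told apart.

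**Figure D4:**
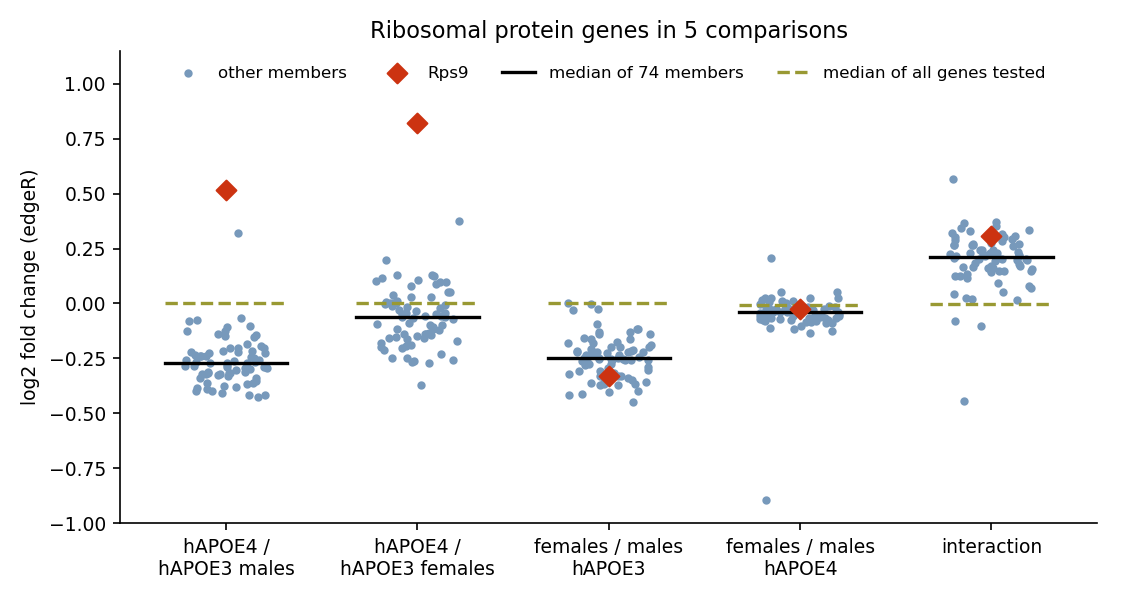
Log2 fold change from edgeR of each of the 74 members in 5 comparisons. Diamonds mark Rps9, black lines the median of the members and dashed lines the median of all 21724 genes. Rps9 lies at 0.52 in males and 0.82 in females, above every other member in both, and among the others in the comparisons of sexes.

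Rps9, a small-subunit protein that joins the ribosomal RNA early in assembly, was higher in hAPOE4 mice of both sexes. It had 80.1, 81.4, 122.1, 146.4 and 158.3 CPM in hAPOE3 males S154 to S158 and 163.99, 169.9, 159.2, 163.5 and 184.6 in hAPOE4 males S174 to S178. In hAPOE3 females S144 to S148 it had 76.4, 70.6, 70.4, 122.0 and 128.5 CPM, and in hAPOE4 females S164 to S168 161.3, 164.5, 172.8, 153.6 and 175.02. The lowest hAPOE4 mouse exceeded the highest hAPOE3 mouse in each sex, narrowly so in males (159.2 against 158.3).

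The log2 fold change of Rps9 was 0.82 ± 0.19 in females (adjusted p = 0.0482 by edgeR) and 0.52 ± 0.19 in males (adjusted p = 0.377). Its interaction of sex and genotype was 0.31 ± 0.27 (adjusted p = 1.00), so a difference between the sexes was not shown. In a contrast over both sexes, added after the values were seen, it was 0.67 ± 0.13 (adjusted p = 0.00917), the single member called, against 2.45% of all genes. Over the fits that left out 1 mouse the female adjusted p ranged from 0.0293 to 0.133 and passed in 7 of 20. It missed without the filter on low counts (0.0519) and was 0.00238 by DESeq2.

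As a count, 1 of 74 members without overlap between the groups is close to the share of all genes, which was 1.44% in males and 3.27% in females. Rps9 was also set against its own family. Log2 CPM of Rps9 minus the mean of the other 73 members was -0.31 ± 0.17 in hAPOE3 males and 0.50 ± 0.10 in hAPOE4 males, and -0.39 ± 0.14 in hAPOE3 females and 0.52 ± 0.06 in hAPOE4 females (SD, n = 5). The differences of 0.80 and 0.91 each had a two-sided exact permutation p of 0.00794, the smallest that 5 against 5 mice can give. Rps9 was chosen for this after its values were seen, with groups already apart in log2 CPM. Any gene whose groups do not overlap gets this p, so it mostly restates the lack of overlap. Other members, named below, also lacked overlap on this measure, as did 0.944% of all genes in males and 2.41% in females. Between the sexes Rps9 minus the other members differed by -0.08 in hAPOE3 and 0.02 in hAPOE4 mice (exact permutation p = 0.405 and 0.682).

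The difference in Rps9 was larger without the 5 high hAPOE3 mice and smaller without the other 5. Without the 5 high mice its log2 fold change was 1.05 in males and 1.19 in females, and without the other 5 it was 0.24 and 0.40. With short abundant genes as a covariate it was 0.86 in males and 0.95 in females (adjusted p = 2.96e-06 and 1.72e-07 by edgeR). That fit was also added after the values were seen, and its covariate moved with the family. Within the hAPOE3 mice Rps9 also followed the family, with between 122.0 and 158.3 CPM in the 5 high mice and between 70.4 and 81.4 in the others. Rps9 is among the members whose mean set the 5 high mice apart. The larger and the smaller difference without either set of mice therefore followed from that choice.

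**Figure D5:**
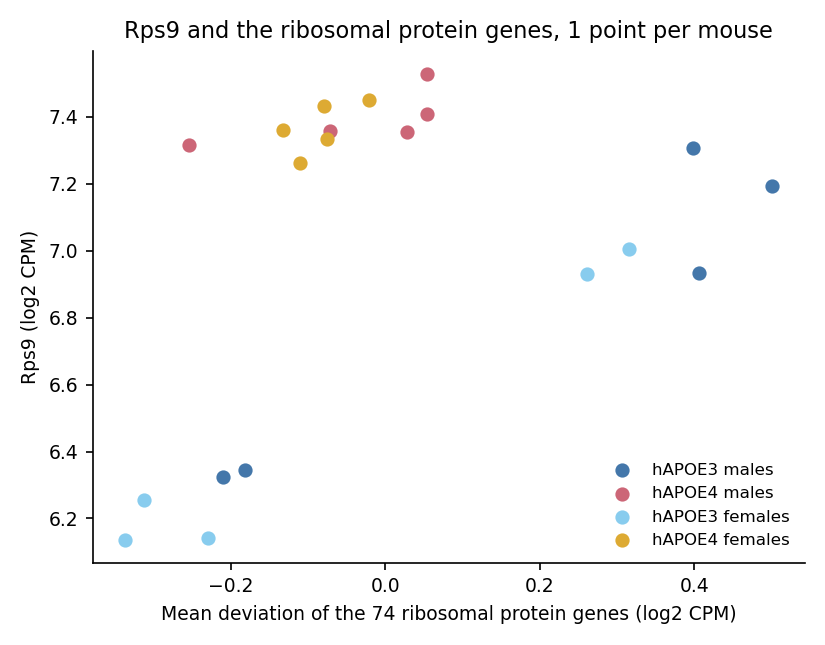
Log2 CPM of Rps9 against the mean deviation of the 74 members in log2 CPM, 1 point per mouse, coloured by group. The 10 hAPOE4 mice lie above 7.2 at a deviation between -0.26 and 0.05, where hAPOE3 mice of similar or lower deviation lie below 6.4.

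Rps9 lies on chromosome 7 (GRCm38 chr7:3703993-3706897, plus strand), 16.0 Mb from Apoe (chr7:19696109-19699188), the replaced gene. Of the 76 members 13 are on chromosome 7, and 8 lie within 30 Mb of Apoe. For 5 others of the 8 the values in males were -0.19 for Rpl28, -0.24 for Rps19, -0.30 for Rps16, -0.32 for Rpl13a and -0.26 for Rpl18 (adjusted p between 0.608 and 0.764 by edgeR). In females they ran from -0.06 (Rps16) to 0.10 (Rpl28), with adjusted p of 0.918 or more. None of these 5 passed the threshold in either sex. Rps19 lies 5.19 Mb from Apoe. Whether distance from Apoe bears on any of these values was not tested.

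Genes next to Rps9 were mixed. Of the 11 other tested genes within 100 kb, Oscar, an immune receptor gene 87836 bases away, had log2 fold changes of 3.64 in males and 3.33 in females (adjusted p = 1.72e-08 and 4.09e-08 by edgeR), and Tmc4, 26440 bases away, 1.05 and 0.96 (adjusted p = 0.0207 and 0.0475). Mboat7, 10470 bases away, had 0.37 and 0.34 (adjusted p = 0.0729 and 0.0837). Tsen34, the nearest gene at 2969 bases, had -0.06 and 0.07 (adjusted p = 0.895 and 0.915). In the added contrast over both sexes Oscar, Tmc4 and Mboat7 were called (adjusted p = 3.13e-11, 0.00108 and 0.00365 by edgeR). The other tested neighbours were not called in it, and 2.45% of all genes were. Whether the Rps9 difference belongs to the APOE allele, to linked sequence or to the line was not tested.

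Set against the mean of the family, 7 of 74 members in males and 14 in females had groups without overlap, against 0.944% and 2.41% of all genes taken against the same mean. These shares are not like for like, because subtracting the family mean takes shared spread out of the members and adds it to unrelated genes. In plain log2 CPM 1 of 74 members lacked overlap in each sex, against 1.44% and 3.27% of all genes. Besides Rps9, 4 members lacked overlap against the family mean in the same direction in both sexes. They are named after their values were seen, with no test. Rpl6 was at 1.09 ± 0.03 and 1.26 ± 0.06 above the family mean in hAPOE3 and hAPOE4 males and at 1.11 ± 0.06 and 1.28 ± 0.06 in females. Rpl21, Rpl35a and Rps25 were lower in hAPOE4 mice, Rps25 for example at 0.42 ± 0.07 and 0.29 ± 0.06 in males and 0.51 ± 0.09 and 0.32 ± 0.09 in females. These shifts of under 0.25 are small beside that of Rps9.

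Between the sexes, ribosomal protein transcripts of hAPOE3 females were lower than those of hAPOE3 males by fold change, with 0 members past the test. The median was -0.25 (a fold of 0.842), and 73 of 74 members were below 0, against 49.45% of all genes. Of the members 7 were below 0 at an unadjusted p under 0.05. The adjusted threshold was passed by 0.0414% of all genes, and 2.9% of all genes were lower at an unadjusted p under 0.05. Rps27 was lowest (-0.45 ± 0.37) and Rpl5 highest (0.00 ± 0.11). DESeq2 called 0 members as well, with 8 at an unadjusted p under 0.05. A fit of these 2 groups alone had 0 members at an unadjusted p under 0.05. The hAPOE3 males hold 3 and the females 2 of the 5 high mice, and the median was -0.08 without those mice (56 of 74 below 0) and -0.03 with the short genes as a covariate (51 of 74 below 0).

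In hAPOE4 mice the sexes were close. The median was -0.04, against -0.01 over all genes, and 62 of 74 members were below 0, against 52.7% of all genes. Of the members 0 passed the adjusted threshold (0.437% of all genes did). At an unadjusted p under 0.05 1 member, Rps27, was lower (3.46% of all genes). Rps27, a zinc-finger protein of the small subunit, had 25.8, 13.2, 8.95, 13.8 and 18.4 CPM in hAPOE4 males and 17.1, 9.29, 5.54, 4.97 and 6.14 in hAPOE4 females (-0.89 ± 0.37, adjusted p = 0.682 by edgeR). The groups overlapped, and its reads are shared with Rps27rt. Rpl27a was highest among members with a mean above 1 CPM, at 0.05 ± 0.15.

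The interaction of sex and genotype had a median of 0.21, with 71 of 74 members above 0, while 50.2% of all genes were below 0. By edgeR 0 members passed the test, adjusted or unadjusted, and 0 passed by DESeq2 (0.184% of all genes passed the adjusted threshold by edgeR). Without the 5 high mice the median was 0.07, with 25 of 74 members below 0, and with the short genes as a covariate it was 0.03, also with 25 below 0. The comparisons share groups, so these medians are not independent of those above.

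Ribosomal proteins outside the symbol rule and the rest of the translation machinery had 0 genes called between genotypes within males or within females. The 7 such ribosomal proteins had a median of -0.25 in males (7 of 7 below 0) and 0.03 in females. The 10 host genes of small nucleolar RNAs, which guide modification of ribosomal RNA, had -0.27 and -0.17, the 7 elongation factors -0.14 and 0.12, the 28 initiation factors -0.06 and -0.03 and the 30 ribosome biogenesis genes -0.04 and 0.04. In the added contrast over both sexes 1 of the 28 initiation factors (Eif3j1) and 1 of the 10 host genes (Snhg3) were called as lower. In the same contrast 1 of 18 genes of RNA polymerase I and its factors was called as higher. Of all genes 2.45% were called in it, in either direction. The 195 short abundant genes had -0.25 and -0.08 and the 1877 long ones 0.11 and 0.06.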

How the data were processed

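Polyadenylated hippocampal RNA of 20 mice (4 groups of 5) was sequenced paired-end. The authors assigned reads to mouse transcripts with Salmon 0.91 and deposited estimated counts per gene from tximport, already whole numbers. A second deposited table holds DESeq2-normalized counts, a signal per gene and mouse, used only as an alternative. All columns matched a mouse by name, and 0 were left out.

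Differences were tested on the counts by edgeR 4.0.16 under R 4.3.3 (filterByExpr by group, 21724 genes; TMM; one mean per group; glmQLFit and glmQLFTest; Benjamini-Hochberg, threshold 0.05). Standard errors are the fold change divided by the root of F. CPM are TMM-scaled, and log2 CPM use a prior count of 2. Lengths are the shortest principal transcript of GENCODE M21 (GRCm38), matched by symbol for 76 of 76 members. Short and long genes were classed by RefSeq-matched transcript length. Promoter windows are those of RefSeq (250 bases before to 50 after a start). Whether the authors' annotation release gives the same gene models was not checked.

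The members, lists and tests were chosen with earlier results of these data known. Named were, per comparison, members past the threshold and the highest and lowest above 1 CPM; the 5 highest and lowest levels; tissue-restricted copies; X-linked members; the 3 most and least correlated; 6 with known other roles; and those within 30 Mb of Apoe. Alternatives were DESeq2 1.42.0, other scalings, limma 3.58.1 on the normalized counts, no filter, only the compared groups, pseudogenes added and each mouse left out. Single values were compared by exact permutation (scipy). The results of 4 genes are not reported here. The edgeR script was tested on simulated data. P-values measure the spread between these mice.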

Additional observations from a re-analysis of the deposited data

Results flagged for a closer look

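In 132 sets of 5 mice, covering the share of counts, Rps9 against the other members and the CPM of named members in each group, 3 held a mouse whose gap to the next exceeded Dixon's 95% critical value of 0.71, where chance gives about 1 in 20. Rpl13a reached 418.6 CPM in hAPOE4 male S178, with the next mouse at 332.1. Rps15 reached 266.3 CPM in hAPOE4 female S168, with the next at 246.5. Rps23 was at 63.5 CPM in hAPOE4 female S165, with the next at 72.2.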

How the results depend on the processing

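Across DESeq2, the other scalings, limma, the fits of compared groups alone and added pseudogenes, the count of members called stayed at 0 (1 in hAPOE4 against hAPOE3 females) and every median kept its sign. Without the filter on low counts the female count was 0. The settings added after seeing the data moved more. Without the 5 high mice the medians reversed in males (0.15, 1 member called against 0.136% of all genes) and females (0.19, 8 called against 0.416%), and Rpl5 between hAPOE3 sexes reversed to -0.0763. Without the other 5 hAPOE3 mice 60 and 44 members were called (7.85% and 7.42% of all genes), with a female median of -0.41. With the short-gene covariate the medians reversed to 0.00 in males (0.0045, 1 called against 0.644%) and 0.0343 in females (4 called against 1.2%). That covariate moved with the members and includes Rplp1 and Rplp2, so medians nearer 0 were to be expected from it.

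Leaving out 1 mouse at a time, the medians ranged from -0.37 to -0.19 in males, -0.13 to 0.0525 in females, -0.36 to -0.16 between hAPOE3 sexes, -0.09 to -0.02 between hAPOE4 sexes and 0.14 to 0.32 for the interaction. Members called ranged from 0 to 1 in females and stayed at 0 elsewhere. Rpl5 between hAPOE3 sexes ranged from -0.0774 to 0.0691 and Rpl27a between hAPOE4 sexes from -0.0165 to 0.10. The share in hAPOE4 females was 1.24% without mitochondrially encoded genes in the total and 1.22% with pseudogenes. No paired analysis was possible because the labels give no replicate numbers, and those used here only name different animals. Median correlations stayed between 0.899 and 0.930 under Spearman, normalized counts and members above 50 CPM.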
